A study of Mus musculus with 6 samples.

Results

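The genes described here are the potassium channel genes of the mouse spinal cord, measured in single nuclei after spinal cord injury. They were taken as the gene symbols that start with Kcn and a letter, without the antisense transcripts whose symbols end in os, and with at least 10 UMIs over all nuclei. A UMI (unique molecular identifier) stands for 1 captured RNA molecule. Of 93 symbols with this start, 3 ended in os and 10 of the other 90 had fewer than 10 UMIs, which left 80 genes of the 19954 in the table. The rule itself uses no comparison between cells or groups, although it was set with earlier results of these data known.

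The nuclei came from wild-type C57BL/6 mice whose thoracic cord had been severely contused, which left both legs permanently paralysed. TESS, a targeted epidural electrical stimulation of the spinal cord, let such mice walk when agonists of the 5-HT1a and D1 receptors were present. The 3 TESS samples came from mice that spent 30 min on a treadmill with TESS, and the 3 CON samples, whose condition is given as paralyzed, from mice on the treadmill for the same time without it. The sources do not say whether CON mice received the agonists, and give no age. The tissue is labelled lumbar spinal cord, although the description of nucleus isolation speaks of the injury site in the thoracic cord. Both groups carry the injury. Whether every sample comes from an animal of its own is not stated. The p-values therefore measure only the spread between these samples, which may be technical.

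Potassium channels are tetramers or dimers of pore-forming subunits that let potassium leave or enter cells and so set the resting potential, the shape of the action potential and the rate of firing. Voltage-gated (Kv) families open on depolarisation, inward rectifiers and tandem-pore channels carry background currents near rest, and calcium- and sodium-activated channels couple firing to intracellular ions. Auxiliary subunits, such as the KChIP proteins of the Kcnip genes and the beta subunits of the Kcnab genes, bind the pore subunits and alter their gating and traffic. In the spinal cord, glial inward rectifiers are known for the uptake of potassium released by firing neurons.

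Pore-forming subunits have a selectivity filter, a loop that coordinates potassium ions. In many but not all families this filter has the residues Thr, any residue, Gly, Tyr, Gly. Its coding sequence is shown for 6 genes of 6 families that the results turn on, read 5′ to 3′ on the coding strand of GENCODE vM21 transcripts (GRCm38), 45 bases each. The capitals mark the match to the motif ACNNNNGGNTANGGN, which codes for the filter in frame.
Kcna2: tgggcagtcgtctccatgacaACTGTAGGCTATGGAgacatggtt
Kcnb2: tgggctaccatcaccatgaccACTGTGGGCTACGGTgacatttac
Kcnd2: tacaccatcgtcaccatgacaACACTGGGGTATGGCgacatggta
Kcnma1: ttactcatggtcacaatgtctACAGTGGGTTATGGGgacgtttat
Kcnj10: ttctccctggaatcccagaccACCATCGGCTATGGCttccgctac
Kcnk1: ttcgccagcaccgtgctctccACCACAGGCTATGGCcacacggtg
In Kcna2 the stretch lies in exon 3 (chr3:107105203-107105247, plus strand), in Kcnb2 in exon 3 (chr1:15710025-15710069, plus strand), in Kcnma1 in exon 8 (chr14:23528404-23528448, minus strand) and in Kcnj10 in exon 2 (chr1:172369281-172369325, plus strand). In Kcnd2 and Kcnk1 it is split by an intron between exons 1 and 2, so that it spans chr6:21217385-21714150 and chr8:125995787-126025028, both on the plus strand. Between pairs of these genes, 9 to 13 of the 15 motif bases were identical.

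The motif, searched in frame on the coding strand only, was found in 47 of the 79 protein-coding members (59.5%), against 116 of 21738 protein-coding genes (0.534%). It was present in all 5 Kv1, 2 Kv2, 4 Kv3, 3 Kv4, 5 Kv7 and 10 silent Kv genes, in 8 of 10 inward rectifiers and in 8 of 11 tandem-pore genes. Silent Kv subunits (the Kcnf, Kcng, Kcns and Kcnv genes) form channels only together with Kv2 subunits. The motif letters were found in none of the 8 EAG, ERG and ELK genes (Kcnh), in none of the 9 auxiliary genes, and in 2 of the 11 genes of the calcium- and sodium-activated group, which also holds the beta subunits of the Kcnmb genes.

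The table holds 18514 nuclei, of which the authors annotated 6035 as neurons of 38 subtypes, 8837 as oligodendrocytes, 1656 as microglia, 1091 as astrocytes, 674 as oligodendrocyte precursor cells (OPC) and 221 as endothelial cells. The study states 20484 nuclei and 6171 neurons. A library held 2192 to 3780 nuclei and 1582104 to 4037976 UMIs, with a median of 424 to 707 UMIs per nucleus. The median was 1688 UMIs in neurons, against 343 in microglia, 433 in oligodendrocytes and 652 in astrocytes. Marker lists were highest in the class they define, and the endothelial class also held pericyte and smooth muscle markers (5478 UMIs per 1000000 summed, against 10149 for endothelial markers). Of 18308 distinct barcodes, 205 occurred in more than 1 library. The treatment of doublets is not given in the sources used here, and none were called.

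The 80 genes gave 216856 UMIs, of which 85.8% were in neurons, against 64.4% of the UMIs of all genes. The share in neurons differed by family. It was 96.1% for Kv2, 94.6% for EAG, ERG and ELK, 93.4% for Kv3, 92.1% for the auxiliary subunits and 88.6% for the calcium- and sodium-activated group. It was lower for the inward rectifiers (75.4%), Kv7 (73.3%), Kv1 (59.4%) and the tandem-pore genes (57.9%), where glial classes contributed more. Whether intronic reads and the strand entered the counts is not stated, so a length to divide by is not known and levels are not compared between genes. Of the members, 24 overlap another gene of the table. Among these, Kcnma1 (10545 UMIs) overlaps Gm29626 (5 UMIs) and Kcnip4 (56468 UMIs) overlaps Gm20700 (15 UMIs). Kcnab1 (6152 UMIs) overlaps A330015K06Rik and A730090N16Rik, which held 3307 UMIs together. The members Kcnq1 (3186 UMIs) and Kcnq1ot1 (7469 UMIs) overlap each other. Each of these overlaps is with a gene on the opposite strand. The reads can be told apart where the count kept the strand, which is not stated. The part of such overlaps in the results below was not tested.

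Levels below are UMIs per 1000000 UMIs of a cell class, written CPM, as mean ± SD over 6 samples, and are compared between classes for 1 gene at a time. Because the classes were clustered from these same genes, differences between classes are given as descriptions with no test. Of 46 members with at least 200 UMIs, 29 had their highest level in neurons, 6 in OPC, 5 in astrocytes, 5 in oligodendrocytes and 1 in microglia.

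**Figure D1:**
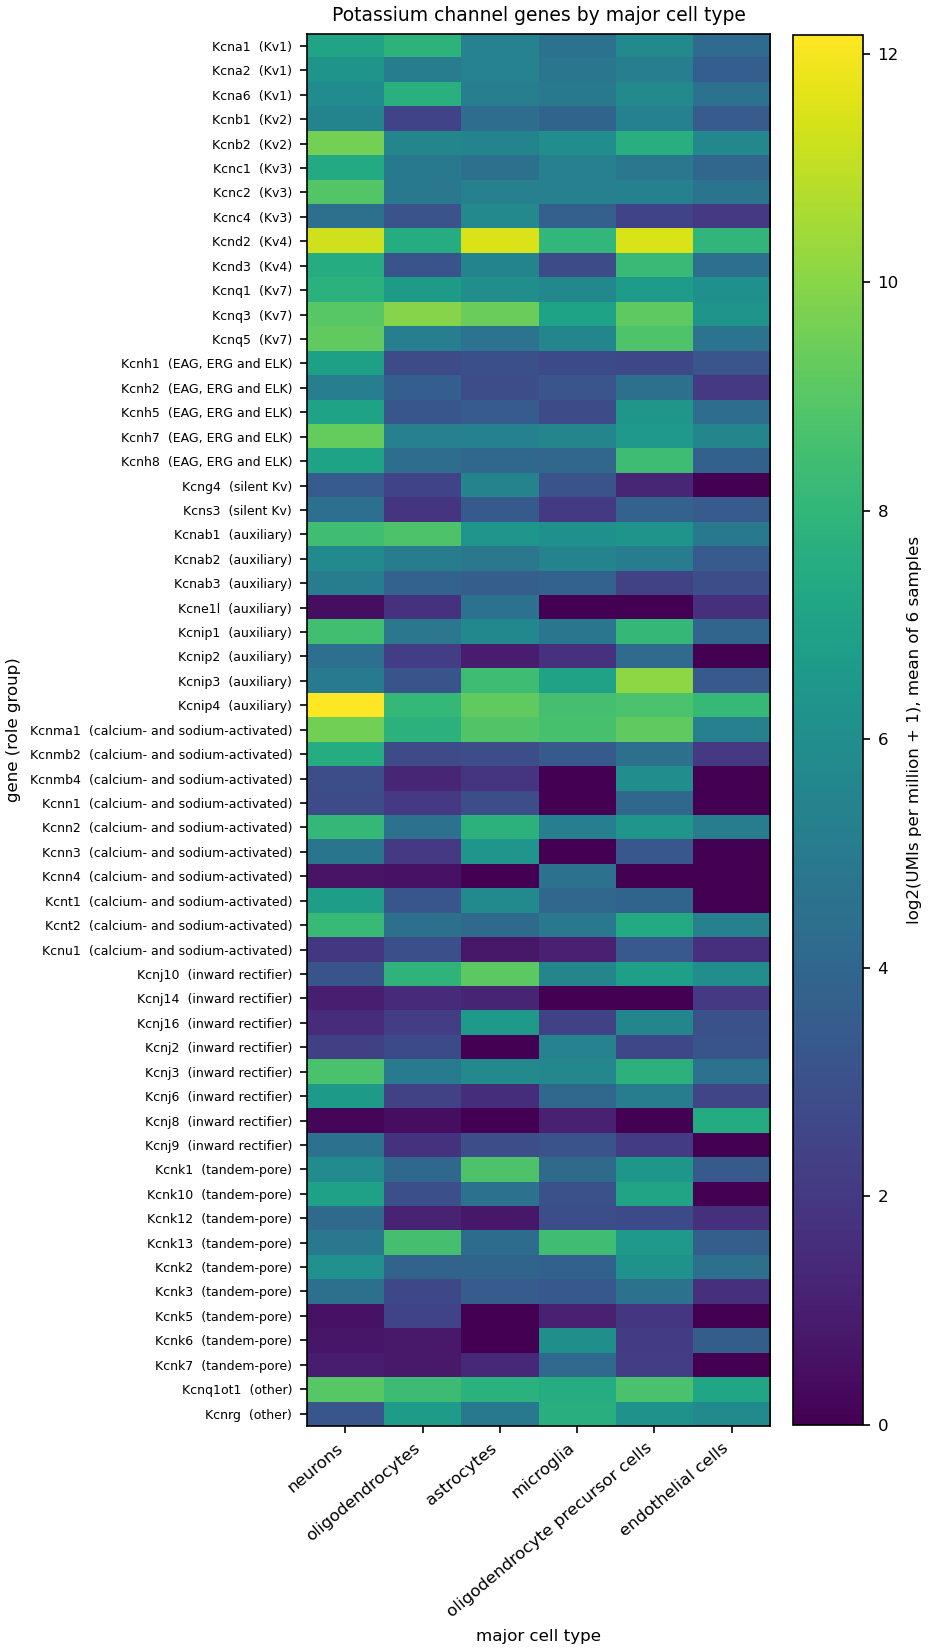
Mean level of 57 potassium channel genes (vertical axis, ordered by family) in 6 major cell types (horizontal axis), as log2 of CPM plus 1, averaged over 6 samples. Kcnip4, Kcnb2 and the Kcnh genes other than Kcnh8 are brightest in the neuron column, while Kcnj10, Kcnk1, Kcnip3 and Kcnk13 are brighter in glial columns.

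Kcnip4 (chr5:48389502-49524907, minus strand), which encodes a KChIP subunit of Kv4 channels, had a level of 4598 ± 374 in neurons, where the lowest sample was at 4107, the median at 4725 and the highest at 5034. Its level was 591 ± 160 in astrocytes and 270 ± 156 in oligodendrocytes, so no glial class came near the lowest neuron sample. Kcnb2 (chr1:15287254-15723750, plus strand), a Kv2 delayed rectifier, stood at 783 ± 57.0 in neurons and 46.3 ± 30.9 in oligodendrocytes. The Kv3 gene Kcnc2, of a family known for fast repolarisation, stood at 478 ± 44.0 in neurons and at 24.7 to 40.2 in the other classes. Kcnh7, an ERG channel gene, had 629 ± 51.6 in neurons and at most 90.5 elsewhere. Kcnj3, which encodes a subunit of the G protein-gated inward rectifier, had 405 ± 31.6 in neurons and 222 ± 76.0 in OPC. Kcnmb2, a beta subunit of the large-conductance calcium-activated channel, had 183 ± 31.3 in neurons and at most 21.8 ± 20.1 elsewhere.

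Kcnd2 (chr6:21215503-21729805, plus strand), the Kv4 pore gene of A-type current, was found in glia as in neurons. Its level was 2952 ± 275 in astrocytes, 2897 ± 546 in OPC and 2516 ± 242 in neurons, and the samples of the 3 classes overlapped. It was 183 ± 96.3 in oligodendrocytes. Its relative Kcnd3 was highest in OPC, at 304 ± 64.6 against 185 ± 17.8 in neurons, and higher there in 6 of 6 samples.

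Kcnma1 (chr14:23289431-24014491, minus strand), the pore gene of the large-conductance calcium-activated channel, was spread over the classes. It had 772 ± 70.1 in neurons, 577 ± 150 in OPC, 462 ± 194 in astrocytes, 399 ± 61.5 in microglia and 228 ± 150 in oligodendrocytes. The samples of neighbouring classes in this order overlapped. In oligodendrocytes the lowest sample had 91.7, the median 163 and the highest 433, a wide spread that follows the groups described below.

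Of the 10 inward rectifier genes, Kcnj10 and Kcnj16 were highest in astrocytes. Kcnj10, which encodes the main glial inward rectifier, had 541 ± 65.4 in astrocytes (lowest 461, median 542, highest 614), 240 ± 36.1 in oligodendrocytes, 116 ± 32.2 in OPC and 7.80 ± 1.51 in neurons. All 6 astrocyte values lay above all oligodendrocyte values. Its partner Kcnj16 had 93.0 ± 43.8 in astrocytes, 47.6 ± 14.7 in OPC and 1.88 ± 0.867 in neurons. The tandem-pore gene Kcnk1 had 430 ± 90.4 in astrocytes (lowest 362, median 394, highest 599) against 56.6 ± 7.93 in neurons. Kcnn3, a small-conductance calcium-activated channel, was highest in astrocytes, at 80.9 ± 26.3, and above its neuron level in 6 of 6 samples.

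In OPC the auxiliary gene Kcnip3, which encodes a KChIP protein also known as a transcriptional repressor, was at its highest. It had 1084 ± 242 in OPC (lowest 777, median 1023, highest 1442), 331 ± 85.6 in astrocytes and 29.9 ± 4.48 in neurons. Kcnh8, an ELK channel gene, had 329 ± 115 in OPC and 132 ± 16.2 in neurons. Kcnmb4, a beta subunit of the large-conductance channel, had 62.4 ± 13.8 in OPC and 6.52 ± 0.858 in neurons. Kcnip3 and Kcnip4, of the same family, thus had their highest levels in different classes.

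Of the 5 Kv1 genes, Kcna1 and Kcna6 were highest in oligodendrocytes and Kcna2, Kcna4 and Kcna5 in neurons. Kcna1 had 232 ± 49.1 in oligodendrocytes and 136 ± 20.9 in neurons, and Kcna6 had 212 ± 23.8 and 57.1 ± 4.79, each higher in oligodendrocytes in 6 of 6 samples. Kv1 channels are known for their place beside the nodes of myelinated axons. Kcna2 (chr3:107101146-107115005, plus strand), of the same family, had its highest level in neurons, at 77.4 ± 18.3 against 35.0 ± 19.0 in oligodendrocytes. Their beta subunit gene Kcnab1 (chr3:65109384-65378223, plus strand) had 440 ± 93.9 in oligodendrocytes and 351 ± 34.6 in neurons, ranges that overlapped. Kcnq3, a subunit of the M current, had 1007 ± 117 in oligodendrocytes and 517 ± 57.4 in neurons. Kcnk13 had 375 ± 54.2 in oligodendrocytes, 351 ± 38.8 in microglia and 28.6 ± 4.75 in neurons.

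In microglia Kcnrg, which encodes a regulator of Kv channels, had 204 ± 92.7, against 103 ± 30.5 in oligodendrocytes and 8.50 ± 1.58 in neurons. Kcnk6 had 66.8 ± 45.0, the inward rectifier Kcnj2 40.6 ± 21.1 and the intermediate-conductance calcium-activated channel Kcnn4 23.2 ± 16.5 CPM in microglia, each highest there. In the endothelial class Kcnj8, known as the pore of the vascular ATP-sensitive channel of pericytes, had 179 ± 38.6 from 47 UMIs and was at or below 1.19 in each other class.

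Neuronal RNA can reach droplets of other cells, and glial nuclei held fewer UMIs than neurons. Beside the glial levels stand those of the 8 neuronal marker genes. In oligodendrocytes these were at 6.57% of their neuron level for Syt1, 7.86% for Rbfox3, 17.8% for Syp, 43.1% for Stmn2, 53.7% for Eno2, 54.6% for Snap25, 94.8% for Uchl1 and 162% for Nefl. Kcnip4 was at 5.87% and Kcnb2 at 5.91% of their neuron levels, below all 8 markers. Kcnd2 at 7.28% and Kcnip1 at 7.64% lay between Syt1 and Rbfox3. Kcnma1 was at 29.5% and Kcna2 at 45.3%. The part that free RNA had in these levels was not tested.

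Within neurons, levels were compared over the 24 subtypes that had at least 10 nuclei in every sample, for the 44 members with at least 200 UMIs in neurons. The subtypes carry the authors' names, mostly after a marker gene or a class of ventral interneuron (V1, V2a, V2b). For 26 of the 44 members the SD between subtypes was larger than that between samples, on the log2 scale. The same subtype was highest in all 6 samples for Kcna1, Kcnh8, Kcnip3, Kcnip4, Kcnmb2 and Kcnt2, and in at least 4 samples for 17 members. The highest level fell in an excitatory subtype for 25 members and in an inhibitory one for 19.

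**Figure D2:**
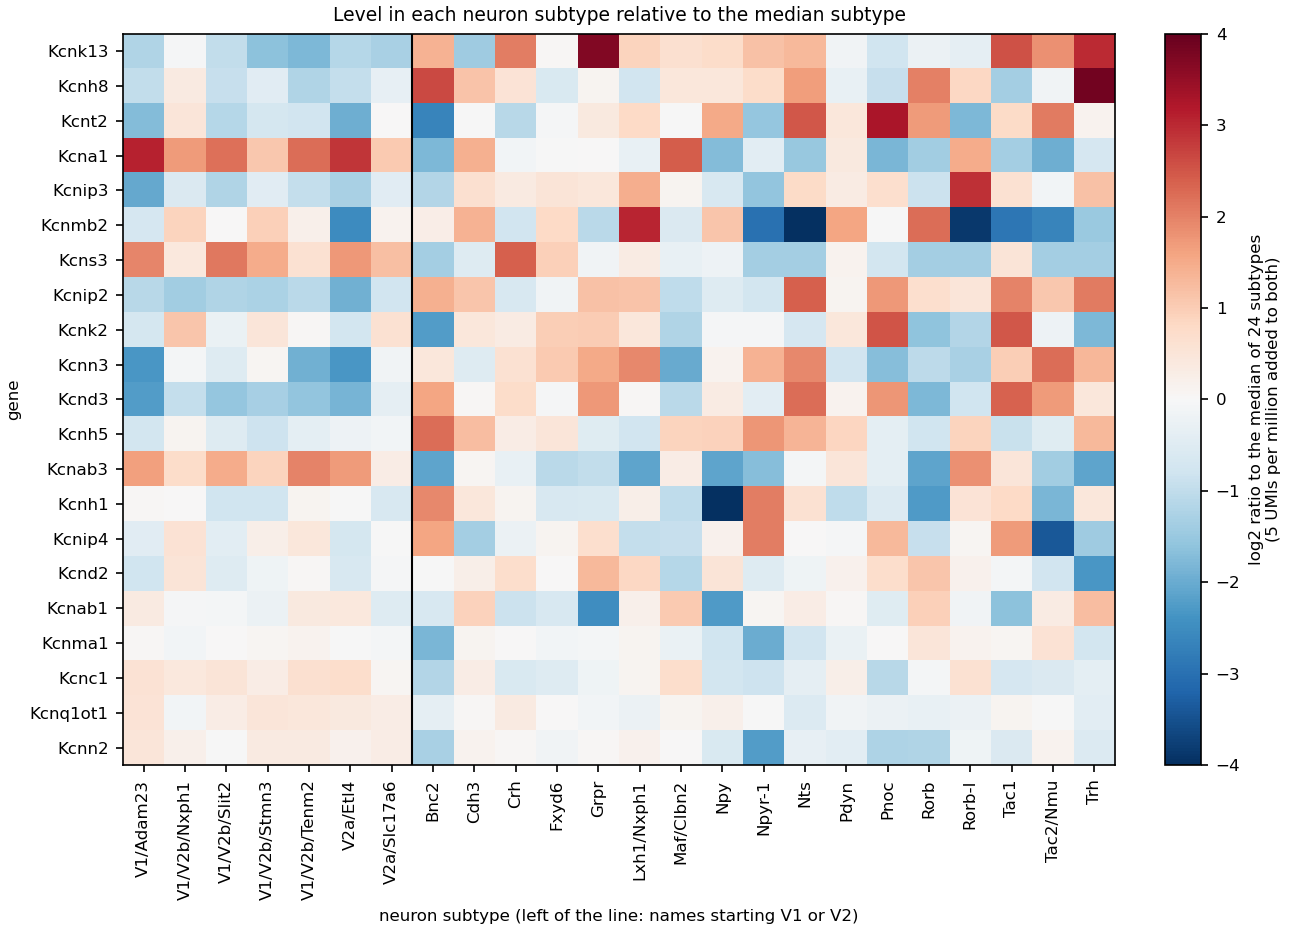
Level of 21 potassium channel genes (vertical axis) in 24 neuron subtypes (horizontal axis) as log2 ratio to the gene's median subtype, with 5 CPM added to both, mean of 6 samples. Each of the upper genes has 1 or a few dark red subtypes, such as Kcnk13 in Grpr and Kcnh8 in Trh, and the V1 and V2 columns left of the line are red for Kcna1, Kcns3 and Kcnab3.

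The auxiliary gene Kcnip4 had 17834 ± 2671 CPM in the excitatory subtype Npyr-1, where the lowest sample was at 15669, the median at 16678 and the highest at 22622. It was at 408 ± 389 in the excitatory subtype Tac2/Nmu, with 78.5 the lowest and 988 the highest sample. Every Npyr-1 sample thus lay far above every Tac2/Nmu sample, although both subtypes are excitatory. Kcnip3 had 203 ± 109 in Rorb-I, 9.0 times its median subtype, and Kcnip2 had 94.3 ± 37.7 in Nts, 6.82 times, from 17 UMIs. Kcnip1 was highest in Pdyn at 913 ± 198 and nearly absent from Trh, with 1 UMI in all.

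The Kv4 pore gene Kcnd2, whose channels the KChIP proteins join, had a different order of subtypes. It was highest in Grpr at 6087 ± 919 and in Rorb at 5337 ± 663, which overlapped, and lowest in Trh at 488 ± 250. Kcnd3 was highest in Tac1 at 888 ± 176 and in Nts at 811 ± 232, and lowest in V1/Adam23 at 32.1. Across the 24 subtypes the correlation of Kcnip4 with Kcnd2 was 0.05 (Pearson) and 0.27 (Spearman), and that of Kcnip4 with Kcnd3 was 0.38 and 0.24. These are descriptions over subtypes that share libraries and differ in depth.

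Among the Kv1 genes, Kcna1 had 368 ± 59.4 in V1/Adam23 (lowest 307, median 359, highest 479) and 318 ± 86.9 in V2a/Etl4, against 39.4 in the median subtype. Kcna2 followed the same order, with 162 ± 40.7 in V1/Adam23, 152 ± 23.9 in V2a/Etl4 and 38.7 in the median subtype. The correlation of Kcna1 with Kcna2 over subtypes was 0.92 (Pearson) and 0.83 (Spearman). Their beta subunit genes divided: Kcnab3 was highest in V1/V2b/Tenm2 at 80.5 ± 16.8, whereas Kcnab1 was highest in Trh at 747 ± 132 and lowest in Grpr at 51.9 ± 37.8.

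In the Kv3 family, known in fast-spiking neurons, Kcnc2 had 1910 ± 507 in Tac2/Nmu and its lowest level, 64.7 ± 33.4, in V2a/Etl4. Kcnc1 varied little, by 1.66 times from the median to the highest subtype. The correlation of Kcnc1 with Kcnc2 over subtypes was -0.45 (Pearson) and -0.50 (Spearman). The Kv2 gene Kcnb2 was highest in Lxh1/Nxph1 at 2371 ± 191 and in Rorb at 2365 ± 736, which did not differ beyond their spread.

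Of the 5 Kcnh genes compared, Kcnh8 had 1315 ± 244 in Trh (lowest 930, median 1303, highest 1625), 15.4 times its median subtype, and 560 ± 217 in Bnc2. Kcnh5 was highest in Bnc2 at 456 ± 148, 4.95 times, and Kcnh1 in Npyr-1 at 521 ± 126, 4.26 times. Kcnh7 (1.75 times) and Kcnh2 (1.86 times) had smaller ratios of highest to median subtype. Kcnh7 still ranged from 162 ± 116 in Rorb to 1165 ± 170 in Pdyn. The silent subunit gene Kcns3 was highest in Crh at 61.5 ± 45.8, from 16 UMIs and with 1 sample at 0.

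Of the calcium- and sodium-activated group, the sodium-activated channel gene Kcnt2 had 2335 ± 499 in Pnoc (lowest 1878, median 2196, highest 3131), 9.76 times the median subtype. Kcnmb2 had 1212 ± 197 in Lxh1/Nxph1, 8.52 times the median, and Kcnn3 had 112 ± 67.8 in Tac2/Nmu, 5.65 times, from 20 UMIs. The pore gene Kcnma1 was among the most even members, with 1195 ± 216 in Tac2/Nmu, 1.51 times the median, though it was at 196 ± 46.8 in Npyr-1. Kcnn2, which encodes a small-conductance channel, had the smallest ratio of highest to median subtype, 1.41. Kcnq1ot1, the long noncoding RNA antisense to Kcnq1, had the next smallest, 1.46.

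Of the tandem-pore genes, Kcnk13 had 283 ± 110 in Grpr, 16.4 times the median subtype of 17.2, and 171 ± 73.9 in Trh, samples that overlapped. Kcnk2 was highest in Pnoc at 330 ± 79.2, 6.21 times the median, with Tac1 beside it at 322. Both have low levels in most subtypes. The M current subunit Kcnq3 was highest in Rorb at 1479 ± 376 and Kcnq5 in Grpr at 1778 ± 661, and their correlation over subtypes was 0.01 (Pearson).

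The 7 tested subtypes named V1 or V2, which are ventral interneurons by name, were set against the other 17. This grouping was chosen after the values were seen, so it is a description. For 11 of the 44 members the mean level was higher in the V1 and V2 set in 6 of 6 samples, and for 22 it was lower in 6 of 6. No such count was made over all genes, so whether these numbers are particular to the members is not known. Kcna1 had 201 ± 48.6 against 46.1 ± 9.04, 4.36 times as much. Kcna2 (112 ± 19.1 against 37.7 ± 9.89), Kcnab3 (50.5 ± 6.00 against 12.9 ± 4.38) and Kcns3 (30.8 ± 7.48 against 8.24 ± 4.28) were higher too. Among the others were Kcnab2, Kcnq1, Kcnc1, Kcnn2, Kcnq1ot1 and Kcnma1, at 1.72 to 1.14 times.

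On the other side, Kcnip2 was 10.9 times lower in the V1 and V2 set, at 3.16 ± 1.37 against 34.4 ± 4.87. Kcnk13 was 10.8 times lower, Kcnd3 5.07 times (66.1 ± 11.9 against 335 ± 39.8), Kcnip3 4.20 times, Kcnn3 3.96 times and Kcnh8 3.93 times. The Kv3 gene Kcnc2 was 2.71 times lower, at 270 ± 44.3 against 732 ± 52.9. Nuclei of the V1 and V2 set were also deeper, with a median of 1866.5 to 3137 UMIs by subtype, against 1029.5 to 2212.5 in the other subtypes. The part of depth in these differences was not tested.

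**Figure D3:**
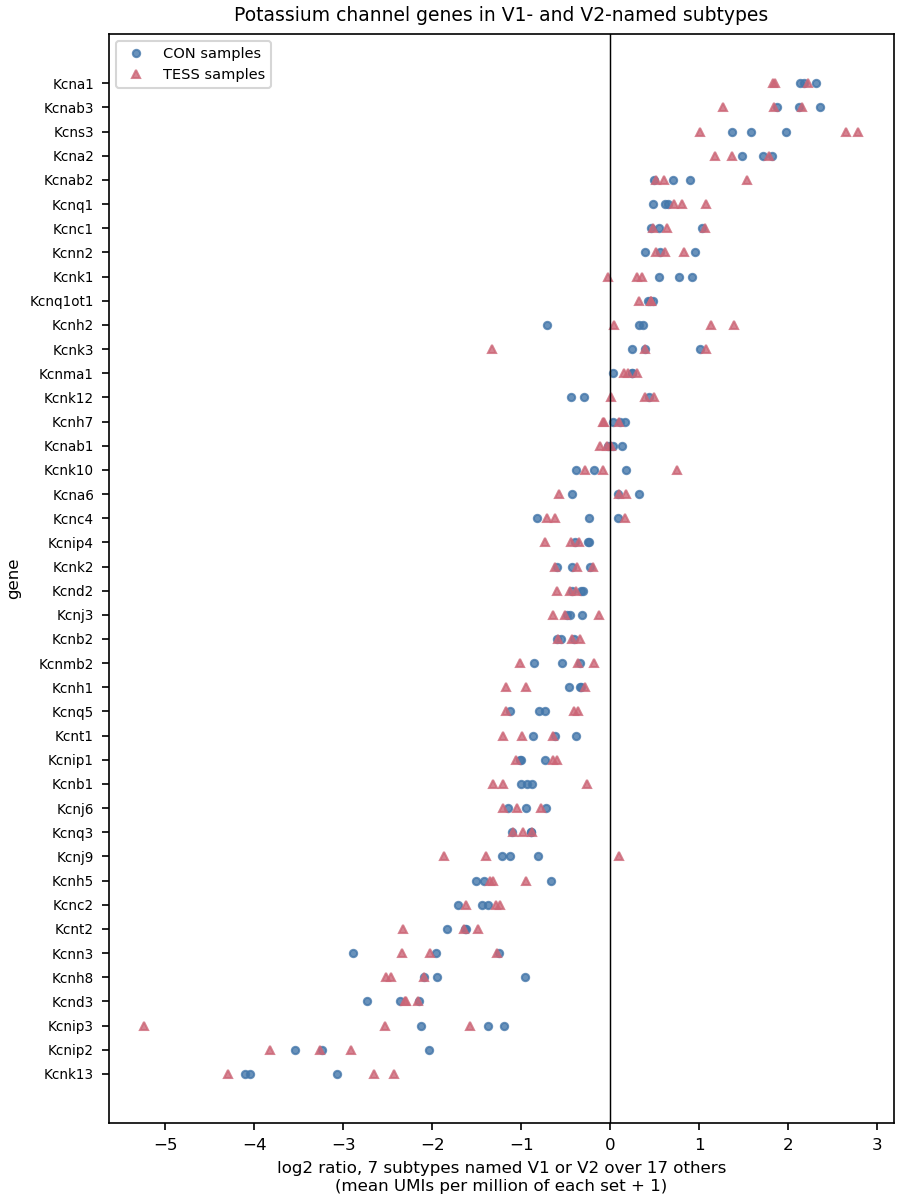
For each of 42 potassium channel genes (vertical axis), the log2 ratio of its mean level in the 7 subtypes named V1 or V2 to that in the 17 others (horizontal axis, 1 CPM added to each), with 1 circle per CON sample and 1 triangle per TESS sample. All 6 points lie right of 0 for Kcna1, Kcnab3, Kcns3 and Kcna2 and left of 0 for Kcnk13, Kcnip2, Kcnip3 and Kcnd3, with CON and TESS samples mixed.

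Excitatory and inhibitory neurons, summed over 20 and 17 subtypes, were set side by side in the same way, with MN left out of both. The subtype Fxyd6 (366 nuclei) counted as inhibitory but was mixed. It had 176 UMIs of excitatory, 247 of inhibitory and 61 of cholinergic transmitter genes. Other subtypes also held both kinds, such as V1/V2b/Slit2 (144 excitatory and 481 inhibitory UMIs) and V2a/Slc17a6 (239 and 96). The level was higher in excitatory neurons in 6 of 6 samples for 15 members, with the widest ratios for Kcnk13 (5.22), Kcnd3 (2.71), Kcnn3 (2.18), Kcnh8 (1.98) and Kcnh5 (1.85). It was higher in inhibitory neurons in 6 of 6 samples for 11 members. Here too no count was made over all genes, so these numbers have no share to be set against. Kcnmb2 had 268 ± 43.1 in inhibitory and 91.0 ± 19.8 in excitatory neurons, 2.95 times, and Kcnip3 (1.76), Kcnab3 (1.67), Kcna1 (1.63), Kcnk1 (1.56) and Kcnb2 (1.47) followed.

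For 14 subtypes some sample had fewer than 10 nuclei, and their levels are given over all samples pooled, with no SD. In Spp1, 11 members exceeded the highest tested subtype, among them Kcna1 at 519, Kcna2 at 193 and Kcns3 at 73.7 CPM. CSF-N, a name for cerebrospinal fluid-contacting neurons, had Kcnh7 at 3067, Kcnq3 at 2851 and Kcnmb2 at 1396. Crabp1 had Kcnip2 at 288 and Kcnmb2 at 1282, Npyr-2 had Kcnip4 at 21060, and Grp had Kcnd2 at 7679 and Kcnh5 at 771. In the motor neurons (MN, 69 nuclei) the member above each tested subtype was Kcnk3, a tandem-pore acid-sensitive channel, at 87.9 from 23 UMIs.

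The study's main comparison was TESS against CON. It was tested in each class on UMIs summed per sample, with the quasi-likelihood test of edgeR and Benjamini-Hochberg adjustment over all genes of the class. A member was called at an adjusted p under 0.05, and log2 fold changes are TESS over CON, ± SE. The groups also differ in batch number, whose meaning is not given: CON 1, CON 2 and TESS 1 share batch 3 and each other sample has a batch of its own.

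In all nuclei, 0 of 62 members tested were called, against 0.754% of all genes. By unadjusted p under 0.05 there were 8 (14.9% of all genes), and DESeq2 called 0 of 64. Their median change was -0.02, beside -0.001 over all genes. The smallest p among members higher in TESS belonged to Kcna2, at 0.51 ± 0.16 with an adjusted p of 0.157, followed by Kcng4 (0.99), Kcnt1 (0.53), Kcnq1ot1 (0.40) and Kcnh2 (0.52). Among those lower in TESS it belonged to Kcnrg, at -0.61 with an adjusted p of 0.176, followed by Kcnip3 (-0.32), Kcnj16 (-0.65), Kcnq1 (-0.31) and Kcnv2 (-0.82). In this sum a change in the share of a cell type and a change of RNA per cell cannot be told apart.

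In neurons, 0 of 58 members were called by edgeR, against 1.04% of all genes, with 7 at an unadjusted p under 0.05 (14.7% of all genes) and 0 of 33 by DESeq2. The nearest was Kcng4, a silent subunit, whose CON samples had 7.33, 3.84 and 7.01 and whose TESS samples had 20.5, 10.6 and 12.2 CPM. The groups did not overlap, and the change of 1.27 ± 0.34 had an adjusted p of 0.0768, from 10 to 37 UMIs per sample. Kcnq1ot1 had 427, 463 and 379 in CON and 584, 466 and 719 in TESS, a change of 0.45 ± 0.13 with an adjusted p of 0.108. Here TESS 2 lay next to the highest CON sample. Kcnt1 (0.52 ± 0.17, adjusted p 0.144), Kcnab2 (0.42, adjusted p 0.231) and Kcna2 (0.40 ± 0.17, adjusted p 0.264) came next. Kcna2 had 56.7, 64.9 and 75.7 in CON and 95.3, 67.9 and 104 in TESS, where 1 TESS sample lay within the CON range.

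Members with the smallest p among those lower in TESS neurons were Kcnj9 (-0.49), Kcnv2 (-0.86), Kcng2 (-0.46), Kcnh8 (-0.23) and Kcnq1 (-0.24), none past the threshold. The abundant genes had changes near 0: Kcnip4 had 4822, 4786 and 4665 in CON and 4177, 5034 and 4107 in TESS, a change of -0.12. Kcnd2 was at -0.02, Kcnab1 at 0.13 and Kcnma1 at 0.17. The sign of Kcnip4 turned to positive when subtypes were given equal numbers of nuclei. That of Kcnd2 did so in 6 alternatives. These were equal nuclei, the batch term, inside batch 3, and leaving out CON 2, CON 3 or TESS 3. In excitatory neurons 0 of 46 members were called by edgeR (0.94% of all genes), with 6 at an unadjusted p under 0.05 (13.5% of all genes), and the smallest p was that of Kcnq1ot1, at 0.48 ± 0.13 with an adjusted p of 0.0672. DESeq2 called it there, 1 of the 29 members to which it gave an adjusted p, with no count over all genes. In inhibitory neurons 0 of 49 were called by edgeR (0.229% of all genes) and 0 of 21 by DESeq2, with 6 at an unadjusted p under 0.05 (11.9% of all genes). There Kcnq1ot1 was at 0.41 with an adjusted p of 0.243. The difference in change between excitatory and inhibitory neurons was called by edgeR for 0 of 54 members (0.0556% of all genes), with 5 at an unadjusted p under 0.05 (5.93%) and a lowest adjusted p of 0.752. DESeq2 was not run on differences in change.

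Over the 24 subtypes, 414 pairs of a member and a subtype were tested and 2 were called, beside 0.0828% of all 31412 pairs. Kcnip4 was higher in TESS in the inhibitory subtype Lxh1/Nxph1, with 895, 1225 and 2068 in CON and 1887, 3786 and 3552 in TESS. TESS 1 lay below CON 3, and the change was 1.05 ± 0.20 with an adjusted p of 0.000161 in edgeR. In this subtype 0.131% of all genes were called. The adjusted p rose to 0.823 with no filter on low counts, 0.224 without CON 1, 0.0944 without TESS 2 and 0.0857 without TESS 3. Kcnab1 was higher in TESS in the excitatory subtype Pdyn, with 168, 134 and 178 in CON and 422, 485 and 565 in TESS, from 8 to 22 UMIs per sample. The change was 1.53 ± 0.35 with an adjusted p of 0.0442, and the call was lost with no filter (0.287) and without any 1 of 5 samples (0.0504 to 0.187), all but TESS 1. In Pdyn 0.346% of all genes were called. By unadjusted p under 0.05 there were 42 of the 414 pairs, beside 7.59% of all pairs.

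Among the major cell types, edgeR called potassium channel genes in oligodendrocytes. Of 29 members tested, 5 were higher in TESS and 0 lower, against 1.07% of all genes called higher and 1.65% called either way. The 5 were Kcnma1, Kcnip4, Kcnd2, Kcnb2 and Kcna2, from 5 families. By unadjusted p under 0.05 there were 11 (14.4% of all genes). DESeq2 called 4 of the 22 members to which it gave an adjusted p, and its share over all genes was not counted. Every TESS sample lay above every CON sample for 11 of the 29, against 11.4% of all genes, and below for 0, against 8.13%. Their median change was 0.36, beside -0.01 over all genes.

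Kcnma1 had 91.7, 123 and 119 CPM with CON and 204, 433 and 397 with TESS. The groups did not overlap, and the change was 1.55 ± 0.22 with an adjusted p of 0.000553 in edgeR. Kcnip4 had 165, 135 and 162 in CON and 277, 335 and 546 in TESS. It rose by 1.25 ± 0.20 with an adjusted p of 0.0014 in edgeR, again without overlap. Kcnd2, the pore gene that Kcnip4 proteins join, had 97.4, 104 and 146 in CON and 190, 203 and 359 in TESS. It rose by 1.03 ± 0.22 (edgeR, adjusted p 0.0146).

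Kcnb2 had 24.1, 19.9 and 29.8 in CON and 53.0, 47.6 and 103 in TESS, and rose by 1.35 ± 0.29 (edgeR, adjusted p 0.0148). Kcna2 had 16.0, 17.1 and 26.2 in CON and 40.1, 45.4 and 65.3 in TESS, from 14 to 31 UMIs per sample. It rose by 1.24 ± 0.30 (edgeR, adjusted p 0.0277). For both genes each TESS sample lay above each CON sample. For 4 of the 5 the highest value was that of TESS 3, which has the fewest UMIs, and for Kcnma1 it was that of TESS 2.

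**Figure D4:**
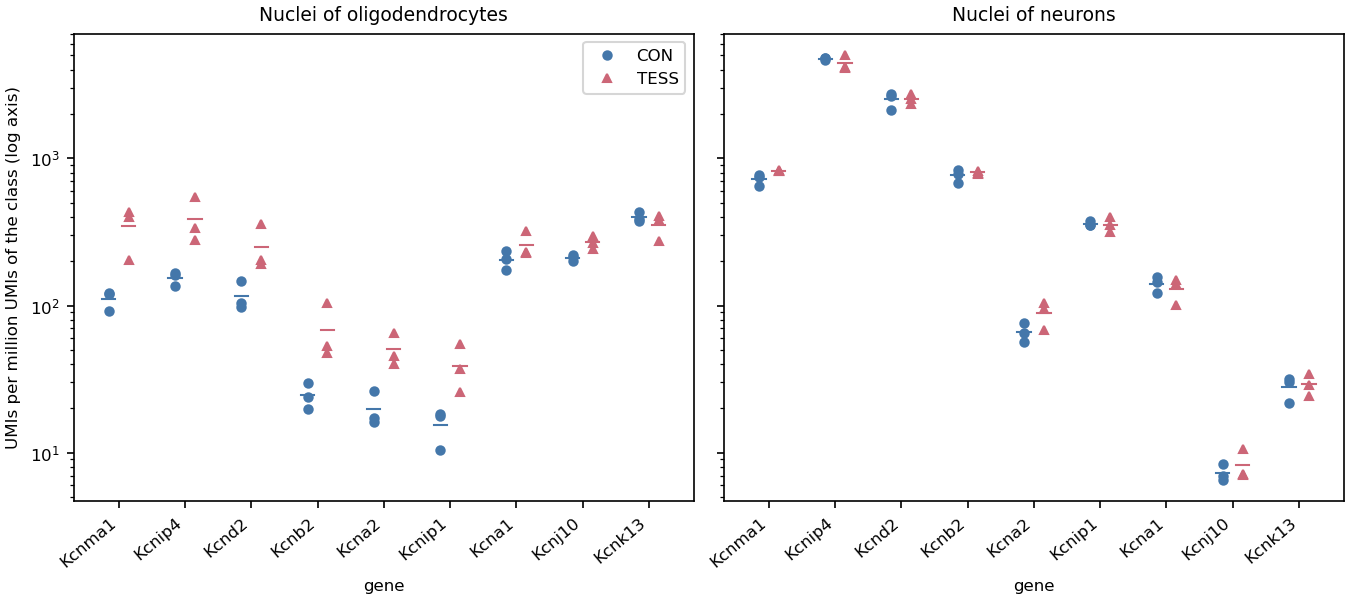
Level in CPM (vertical log axis) of 9 potassium channel genes (horizontal axis) in oligodendrocyte nuclei, left, and neuron nuclei, right. Circles are the 3 CON and triangles the 3 TESS samples, and bars are group means. In oligodendrocytes the triangles of the first 6 genes lie above all circles, from Kcnma1 to Kcnip1, while in neurons the groups lie close together.

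Other members did not pass. Kcnip1 was at 1.20 ± 0.34 (edgeR, adjusted p 0.0807), the small-conductance gene Kcnn2 at 1.21 (0.124), Kcnt2 at 1.19 (0.115) and Kcnh7 at 0.89 (0.113). The 7 members with a higher level in oligodendrocytes than in neurons were Kcna1 at 0.30, Kcnj10 at 0.29, Kcnq3 at 0.20, Kcna6 at -0.05, Kcnk13 at -0.22, Kcnab1 at -0.27 and Kcnrg at -0.48, with adjusted p of 0.339 to 0.932. Kcnj10 had 213, 200 and 221 in CON and 266, 242 and 296 in TESS, so that its groups did not overlap either. The lowest changes were those of Kcnq1 (-0.58, adjusted p 0.238) and Kcnrg. Of the 22 members with a lower level in oligodendrocytes than in neurons, 18 had a positive change, with a median of 0.446, and all 5 calls were among them, as were Kcnh8 (-0.03), Kcnab2 (-0.04) and Kcnk2 (-0.12). Of the 7 with a higher level, 3 had a positive change, with a median of -0.045 and 0 calls. The difference between these sets was not tested. No such split was made over all genes, so whether it is particular to the members is not known.

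Markers of other cell types in the oligodendrocyte class stand beside these changes. The neuron marker Syt1 had 44.7, 66.5 and 84.5 in CON and 97.0, 113 and 212 in TESS, a change of 0.99 ± 0.26 (edgeR, adjusted p 0.0505) without overlap. The groups of the other 7 neuron markers overlapped, with changes of -0.40 to 0.30, and the sum over all 8 was 1151 to 1646 in CON and 1090 to 1574 in TESS, with no marker at 0. OPC markers summed to 55.0 to 80.9 in CON and 86.6 to 141 in TESS, and astrocyte markers to 352 to 546 and 548 to 595. The part of these in the result was not tested. Among nuclei without a UMI of any of the 8 neuron markers (48.2% to 67.0% of oligodendrocyte nuclei per sample), 3 members were called: Kcnma1 at 1.67 (edgeR, adjusted p 8.66e-05), Kcnip4 at 1.37 (0.000298) and Kcnd2 at 1.09 (0.00812). Kcna2 (1.29, adjusted p 0.137) and Kcnb2 (0.98, adjusted p 0.201) were not. This set was chosen after the data were seen, and the share of all genes called in it was not counted. Among the markers, Nefl was at 162% and Uchl1 at 94.8% of the neuron level in oligodendrocytes. The set therefore cannot tell nuclei with neuronal RNA from those without it.

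The calls also moved with single libraries and with batch. Without CON 2, or without TESS 3, 2 members were called, Kcnma1 and Kcnip4. Inside batch 3 (CON 1 and CON 2 against TESS 1), the changes, with no test, were 0.86 for Kcnma1, 0.84 for Kcnip4, 0.86 for Kcnd2, 1.22 for Kcnb2 and 1.21 for Kcna2. With batch as a term, which leaves 1 residual degree of freedom, 0 of the 5 were called (adjusted p 0.0505 to 0.176).

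The difference in change between neurons and oligodendrocytes was tested directly as an interaction, with the sample as a block, and was called for 5 of 50 members, against 0.727% of all genes. The change in neurons minus that in oligodendrocytes was -1.31 ± 0.20 for Kcnma1 (edgeR, adjusted p 6.91e-05), -1.33 ± 0.22 for Kcnip4 (0.000191), -1.02 ± 0.22 for Kcnd2 (0.00984), -1.28 ± 0.29 for Kcnb2 (0.0118) and -1.25 ± 0.32 for Kcnip1 (0.0417). Of 7 alternatives, Kcnma1 and Kcnip4 were called in 7, Kcnd2 and Kcnb2 in 5 and Kcnip1 in 2. Kcna2, which was higher in TESS in both classes without passing in neurons, was not called. There were 12 members at an unadjusted p under 0.05, beside 9.32% of all genes.

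**Figure D5:**
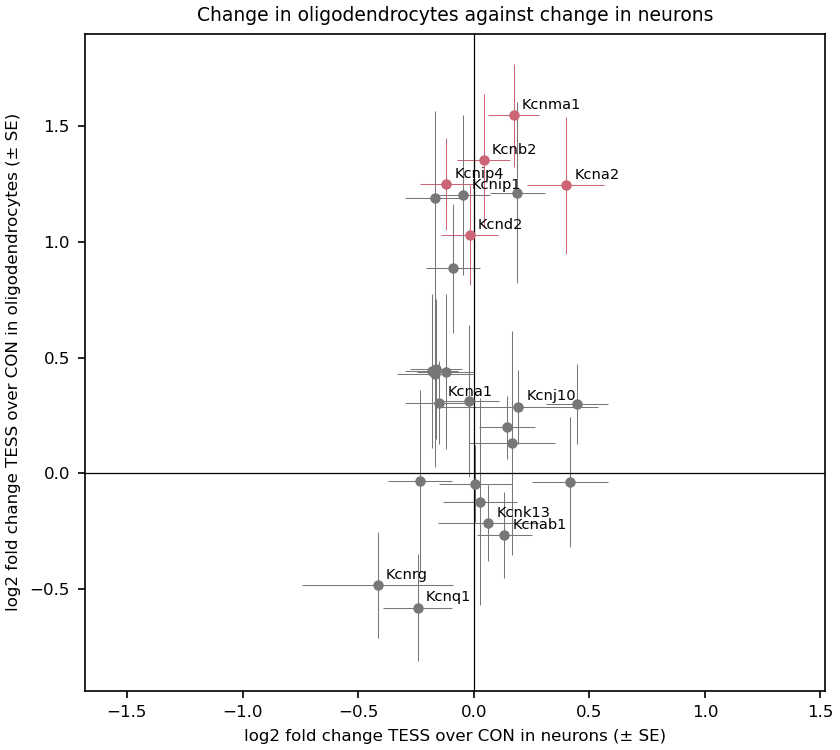
Log2 fold change of TESS over CON in oligodendrocytes (vertical axis) against that in neurons (horizontal axis) for 27 of the 29 potassium channel genes tested in both, with bars of 1 SE; red marks an adjusted p under 0.05 in oligodendrocytes. The 5 red genes lie at 1.03 to 1.55 on the vertical axis and at -0.12 to 0.40 on the horizontal axis.

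In microglia 0 of 8 members were called by edgeR, against 0.6% of all genes, with 5 at an unadjusted p under 0.05 (11.9% of all genes). DESeq2 gave an adjusted p to only 4 members and called 2 of them, Kcnd2 and Kcnip4. Its share over all genes was not counted. Kcnip4 had 141, 193 and 326 in CON and 378, 538 and 677 in TESS, a change of 1.23 ± 0.30 with an adjusted p of 0.0629 in edgeR. Kcnd2 had 106, 135 and 217 in CON and 252, 417 and 451 in TESS, a change of 1.22 ± 0.31 (adjusted p 0.0682). Syt1 in microglia had 17.6, 85.6 and 65.1 in CON and 161, 135 and 150 in TESS, at 1.35 ± 0.43 (adjusted p 0.140). It was 1 of 3 neuron markers of 8 that were higher in TESS there, and their sum was 1401 to 2313 in CON and 1144 to 1894 in TESS, with none at 0. Astrocyte markers summed to 519.7 to 630 in CON and 771 to 846 in TESS in this class, and OPC markers to 85.6 to 150 and 175 to 296. Microglial markers were lower in TESS for 7 of 7, with sums of 14983 to 21334 and 11941 to 17412. The part of these in the changes was not tested. Kcnma1 was at -0.15, and Kcnrg, highest in this class, at -1.05 (adjusted p 0.104) with 247, 349 and 239 in CON and 161, 135 and 94.1 in TESS.

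In astrocytes 0 of 10 members were called by edgeR, against 0.976% of all genes, with 1 at an unadjusted p under 0.05 (11.6% of all genes) and 0 of 63 by DESeq2. That 1 was Kcnj16, with 113, 124 and 154 in CON and 40.5, 65.8 and 60.9 in TESS, from 3 to 27 UMIs per sample. The groups did not overlap and the change was -1.21 ± 0.41 (adjusted p 0.165), while summed astrocyte markers were 10878 to 11794 in CON and 13622 to 16085 in TESS. In OPC 0 of 13 were called by edgeR, against 0.155% of all genes, with 2 at an unadjusted p under 0.05 (8.92% of all genes) and 0 of 64 by DESeq2. Kcnip4 had the smallest p, at 1.06 ± 0.38 (adjusted p 0.35), but was at -0.57 inside batch 3. In endothelial cells the 1 member tested, Kcnd2, was at -0.26 and was not called, against 1.54% of all genes (0 at an unadjusted p under 0.05, against 15.3%, and 0 of 55 by DESeq2).

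The difference in change from neurons was called by edgeR for 0 of 50 members in astrocytes (0.0691% of all genes, lowest adjusted p 0.455), 0 of 51 in microglia (0.106%, 0.0778), 0 of 48 in OPC (0.0635%, 0.156) and 0 of 47 in endothelial cells (0.0099%, 1). Members at an unadjusted p under 0.05 numbered 1, 8, 4 and 4, against 6.2%, 6.57%, 4.75% and 4.1% of all genes. These classes hold 221 to 1656 nuclei, and a p that misses the threshold does not show that members changed alike.

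Genes whose proteins bind these channels, and the related Hcn channels, were followed in a list of 25. In neurons 0 of 19 tested were called by edgeR, against 1.04% of all genes, with 2 at an unadjusted p under 0.05, against 14.7%. Adam23 was nearest, at 0.44 with an adjusted p of 0.0817. In oligodendrocytes 2 of 16 were higher in TESS and 0 lower, against 1.07% of all genes called higher: Cntnap2, which holds Kv1 channels beside nodes, at 1.31 ± 0.23 (adjusted p 0.00329), and Dpp10, an auxiliary subunit of Kv4 channels, at 1.16 ± 0.26 (adjusted p 0.0196). The related Dpp6 was at 0.58 and did not pass (adjusted p 0.215). Cntnap2 was also called in astrocytes, at 1.55 ± 0.27 (adjusted p 0.00053, 1 of 7 tested, against 0.976% of all genes), and in OPC, at 1.98 ± 0.29 (adjusted p 0.000268, 1 of 9 tested, against 0.155%). Under the alternatives run for the members, applied here after the data were seen, Cntnap2 was called in 11 of 13 in oligodendrocytes, the batch term among them, and not without TESS 3 (adjusted p 0.0838) or by DESeq2 (0.0827). Dpp10 was called in 10 of 13, and not without CON 1 (0.0949), without TESS 3 (0.191) or among nuclei without a neuron marker UMI (0.223). Cntnap2 was called in 10 of 11 in astrocytes, DESeq2 being the exception (0.0907), and in 11 of 11 in OPC. In microglia it was at 1.15 (adjusted p 0.129, 0 of 7 called) and in neurons at 0.08 (adjusted p 0.783).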

How the data were processed

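Single-nucleus RNA from 6 samples, 3 CON and 3 TESS, was analysed from the deposited matrix of UMI counts, whose values are whole numbers. Per the submitters' processing notes, Cell Ranger 2.2.0, Seurat 3 and the builds mm10 and GRCm38 were used. The sources used here give no filter on nuclei, no intron or strand setting and no meaning of the batch numbers. The deposited metadata give the authors' cell type, subtype, library, batch and a mitochondrial fraction of each nucleus, inferred from its name and range and not used in a test.

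Counts were summed per sample and class and fitted with edgeR 4.0.16 in R 4.3.3 (TMM, minimum count 10, quasi-likelihood test, no batch term), with limma 3.58.1. Interactions kept the sample as a block. DESeq2 1.42.0, other scaling, no filter, a replicate block, a batch term, equal nuclei per subtype and leaving out each sample were alternatives. Levels are UMIs per 1000000. SDs over 6 samples hold differences between libraries and groups besides counting error. Samples differed from each other beyond sampling noise (chi-square over degrees of freedom 2.32 to 9.14). The scripts were checked on simulated data. A subtype counted as excitatory where its summed UMIs of Slc17a6 and Slc17a8 exceeded those of Gad1, Gad2, Slc32a1 and Slc6a5, and as inhibitory otherwise. Slc17a7 was planned too but is absent from the matrix. MN entered neither set.

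The members, lists and tests were chosen with earlier results of these data known. Named are Kcnma1, Kcna2, Kcnd2, Kcnip4 and Kcnab1 throughout and each call. Also named are the 5 members with the smallest p in each direction in all nuclei and neurons, and the 1 smallest in each other class. Between cell types, they are the highest of a family in a class and those at least 2 times their neuron level outside neurons. Among subtypes they are the 15 with the largest and the 5 with the smallest ratio of highest to median subtype. Further members were named after their values were seen: Kcnh7, Kcnt2, Kcnn2, Kcnj10, Kcna1, Kcnk13, Kcnq1, Kcnrg and Kcnip1 in oligodendrocytes, Kcnd2, Kcnma1 and Kcnrg in microglia, and Kcnip1, Kcnb2, Kcnc2, Kcnq3 and Kcnq5 among subtypes. Of the members these rules choose, 3 are not reported here by name or drawn, and stay in the counts over members.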

Additional observations from a re-analysis of the deposited data

Results flagged for a closer look

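For 5 potassium channel genes the change with TESS differed between neurons and oligodendrocytes by a test of the difference itself (interaction term, edgeR, sample as a block). The change in neurons minus the change in oligodendrocytes, on the log2 scale, was -1.31 for Kcnma1, -1.33 for Kcnip4, -1.02 for Kcnd2, -1.28 for Kcnb2 and -1.25 for Kcnip1. In neurons alone the 5 changes were 0.17, -0.12, -0.02, 0.04 and -0.05, in the same order. Kcnip1 did not pass in oligodendrocytes alone (adjusted p 0.0807). Without CON 2, or without TESS 3, the difference was called for 2 members in place of 5. In oligodendrocytes the neuron marker Syt1 was at 0.99 with TESS without overlap of the groups (edgeR, adjusted p 0.0505). The groups of the other neuron markers overlapped, with changes of -0.40 to 0.30. The sum over all 8 was 1151 to 1646 CPM in CON and 1090 to 1574 in TESS. The part of these markers in the result was not tested. With a batch term 0 members were called in oligodendrocytes, and the difference between the classes was not run with that term.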

How the results depend on the processing

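Counts of called members were 0 in all nuclei, inhibitory neurons, astrocytes and endothelial cells under each alternative run. The share of all genes called was not counted under the alternatives. In neurons (0), no filter gave 3, and leaving out a sample gave 0 to 2, the 2 without TESS 2. In excitatory neurons (0), no filter gave 2, the replicate block 1 and DESeq2 1, with 0 to 2 when a sample was left out, the 2 again without TESS 2. In oligodendrocytes (5), the batch term gave 0, nuclei without neuron markers 3 (this set and nuclei of up to 1000 UMIs, which gave 5, were chosen after seeing the data), and leaving out a sample 2 to 7. In microglia (0), no filter gave 1, the replicate block 3 and DESeq2 2, with 0 to 2 when a sample was left out, the 2 without CON 3 or TESS 1. In OPC (0), the replicate block gave 1 and leaving out a sample 0 to 0. In subtypes (2), no filter gave 0, the block 3 and leaving out a sample 1 to 4. For differences between classes (5), leaving out a sample gave 2 to 8, with 2 without CON 2 or TESS 3 and 8 without TESS 1. Of the 46 members, 28 to 31 were highest in neurons (29 with all samples), and of the 44 members 35 to 41 kept their highest subtype. No direction of a called member was reversed. For named members, 27 alternative values lost the call and 15 gained it. The other 480 were counted as the same. These include values with no adjusted p, such as those inside batch 3, and changes of sign in members that were not called. The causes were not tested. The replicate numbers are shared between groups, but same-numbered samples did not deviate together (correlations -0.054, -0.0016 and -0.021). CON 1 and TESS 1 also share batch 3. With so few samples, whether the number stands for a pairing cannot be told from these correlations. Calls in glia and subtypes rest on few UMIs, and a missed call there is not evidence of no change.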
